A study of Mus musculus with 16 samples.

Results

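The release machinery of the presynaptic terminal was followed here as 38 genes of the 32285 genes listed in each library, taken by their symbols. They were grouped into 7 synaptotagmin and *Doc2b* genes, 3 synapsins, 11 SNARE proteins and their regulators, and 9 priming and active zone proteins. The other groups were 3 Rab3 GTPases and 5 membrane proteins of the synaptic vesicle. Each symbol occurred once, and none of the 38 served as a marker for sorting nuclei into classes. RNA and open chromatin were measured together in single nuclei (10x Multiome) from the microdissected, fresh frozen dentate gyrus of 8 mice. Of these, 4 were WT (genotype VV) and 4 carried the V321L variant of *Nrg1*, a missense change in the transmembrane domain of the growth factor neuregulin 1, on both copies (genotype LL). Each genotype had 2 females and 2 males, with 1 library for each mouse, and the age of these mice is not given in the sources used here. The variant is present in every cell of the animal, and no other allele or treatment is named for either group.

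A synaptic vesicle is loaded with transmitter, docked at the active zone, primed and then fused with the plasma membrane when calcium enters. Fusion is driven by the SNARE proteins, synaptobrevin (VAMP) on the vesicle and syntaxin and SNAP-25 on the plasma membrane, which complexins clamp and NSF takes apart again. Many but not all synaptotagmins sense calcium. Munc13 (Unc13) and RIM proteins prime vesicles, Bassoon, Piccolo and ERC organise the active zone, Rab3 GTPases tether vesicles, and synapsins hold the reserve pool. The mossy fibre terminal of the granule cell (GC) onto CA3 is known for low initial release probability and strong facilitation, and hippocampal neurons differ in which isoforms of these families they use.

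Nuclei were assigned to classes by the number of marker genes with at least 1 unique molecular identifier (UMI, a counted RNA molecule), requiring 2 or more markers of the class and 2 more than of any other. A CA1 type nucleus also needed a UMI of *Fibcd1* or *Wfs1*. These rules gave 8639 granule, 818 CA3 type, 100 CA1 type and 300 GABAergic nuclei. CA1 type nuclei reached the minimum of 10 in only 3 mice, all V321L (F1, F2 and M2), so the CA1 comparison rests on them and no genotype comparison was possible in that class. No nucleus met the rule for mossy cell markers, and whether mossy cells lie in the CA3 type gate was not tested. V321L F2 and M1 gave only 17 and 12 CA3 type nuclei, beside 87 and 74 with no upper limits on depth. V321L nuclei were deeper than WT nuclei, with a median per library of 2663 to 4131 UMIs against 1096.5 to 1923, and granule nuclei of V321L mice had 0.861% to 1.79% ribosomal protein RNA against 0.0981% to 0.163% in WT mice. *Syt1* UMIs were found in 94.5% to 99% of granule nuclei, and also in 16.1% to 50.0% of WT and 8.33% to 19.6% of V321L oligodendrocyte nuclei, at median depths of 674 to 916.5 and 929 to 1298.5 UMIs, a class that should hold little of it. Whether free RNA or misassigned nuclei add to the shares of nuclei with a UMI was not tested. Levels are given in CPM, a gene's UMIs per 1000000 UMIs summed over the nuclei of a class in a mouse. Values in parentheses written as a number ± SE are log2 fold changes. Fold changes come from edgeR's quasi-likelihood test on those sums with trimmed mean scaling, are positive where the first-named group is higher, carry a standard error (SE), and are called at an adjusted p under 0.05 over all genes tested. Summed levels in a class cannot tell fewer expressing nuclei from less RNA per nucleus.

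Granule nuclei differed from CA3 type nuclei in 26 of the 35 members that could be tested, 10 higher and 16 lower, where 24.3% of all 7477 genes tested were higher and 19.6% lower. Against GABAergic nuclei 12 were higher and 12 lower, beside 26.0% and 20.1% of all genes. Against the CA1 type nuclei of the 3 mice 11 were higher and 6 lower, beside 13.6% and 10.6%. *Syt2*, *Vamp1* and *Unc13c* were too low to test in these class comparisons. The median fold change of the members tested was -0.12 against CA3 type, 0.21 against CA1 type and -0.10 against GABAergic nuclei, beside 0.06, 0.09 and 0.10 over all genes tested. The GABAergic median turned positive without V321L F2 (0.09), with nuclei thinned to 1000 UMIs (0.27) and with no filter on low counts (0.13). The CA1 type median was -0.00487 with a looser gate. That gate asked for only 1 more marker than of any other class and dropped the *Fibcd1* or *Wfs1* rule. It gave 123 CA1 type nuclei in V321L M1 instead of 5, and 36 in WT F2 instead of 0. The members with a called log2 difference above 2 from CA3 type nuclei were *Stxbp6*, *Sv2c*, *Doc2b* and *Syn3*, all higher in granule nuclei, and *Sv2b*, lower. From GABAergic nuclei they were *Doc2b*, *Stxbp6*, *Syt7* and *Syt5*, higher, and *Rab3b*, *Rims3* and *Rab3c*, lower. A further 5 members, *Vamp2*, *Napb*, *Unc13a*, *Rab3a* and *Syp*, were called in neither the CA3 type nor the GABAergic comparison. Members near 0 in a class passed the low-count filter only through other classes, so the direction of their calls was fixed beforehand. Among these were *Rab3b* and *Rims3* against GABAergic nuclei, and *Sv2b*, *Sv2c* and *Doc2b* against CA3 type nuclei.

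**Figure D1:**
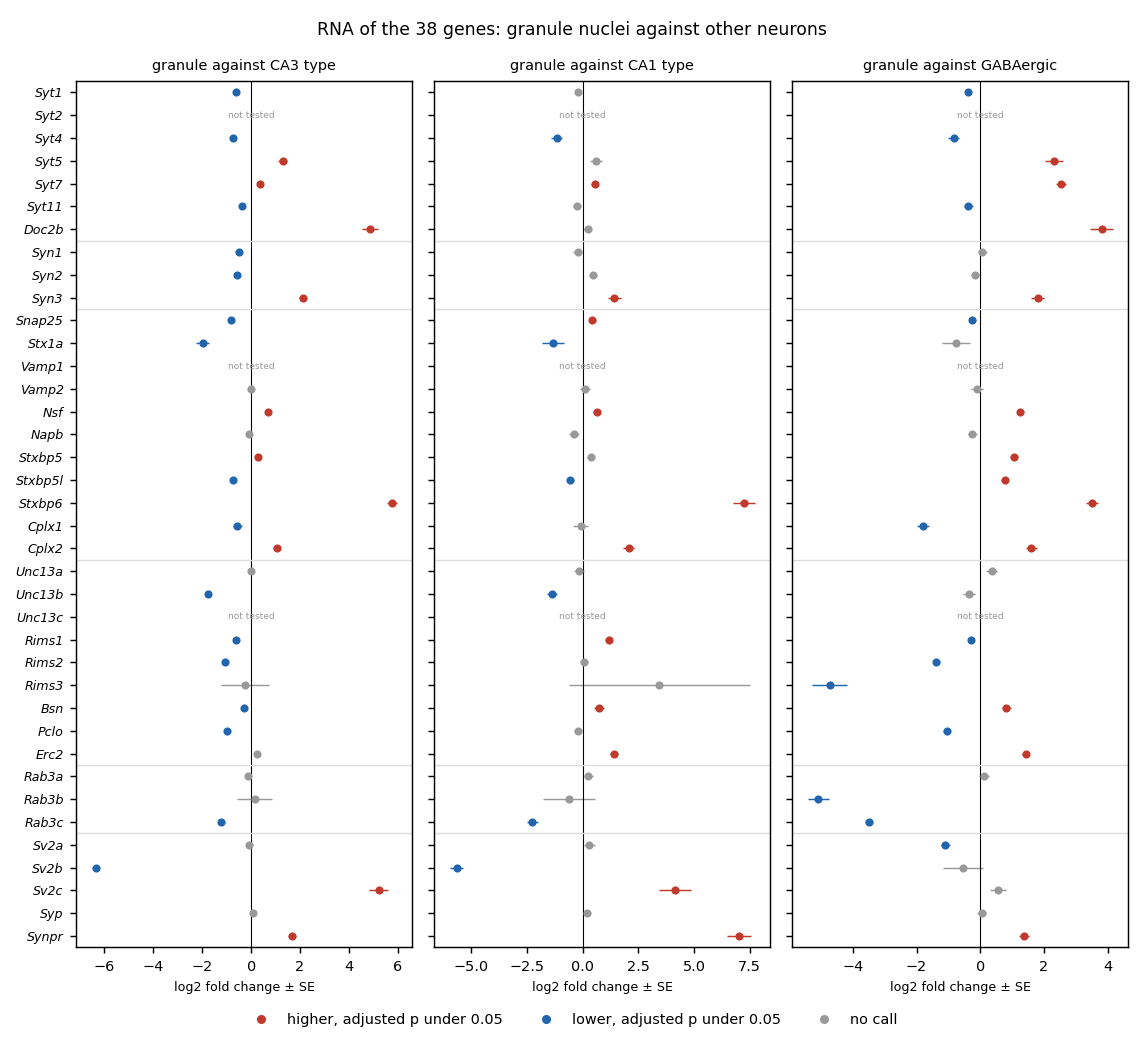
Log2 fold change (points, with SE as bars) of each of the 38 genes in granule nuclei against CA3 type, CA1 type and GABAergic nuclei, ordered by role with grey lines between roles; red marks genes higher and blue genes lower at an adjusted p under 0.05. *Stxbp6*, *Doc2b* and *Sv2c* lie far to the right and *Sv2b* far to the left of 0 in the CA3 type panel, while *Rab3b* and *Rab3c* lie far to the left in the GABAergic panel.

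Within the synaptotagmin and *Doc2b* group, *Doc2b*, a high-affinity calcium sensor linked to spontaneous and asynchronous release, showed the widest gap. Its level was 15.7, 11.7, 24.8 and 16.5 in the WT mice and 109, 143, 89.6 and 127 in the V321L mice for granule nuclei. In CA3 type nuclei it was 0 to 4.06 (median 1.10) over the 8 mice, from 5 UMIs in all, a granule to CA3 type ratio of 49.6 (95% counting interval 21.2 to 153), and in the 3 mice with CA1 type nuclei it was 90.8, 132 and 93.5. The granule level lay above the CA3 type level in every mouse (log2 fold change 4.85 ± 0.34, adjusted p = 1.02e-15) and above the GABAergic level (log2 fold change 3.81 ± 0.36, adjusted p = 5.75e-12), and did not differ detectably from the CA1 type level (log2 fold change 0.21 ± 0.22, adjusted p = 0.563). *Syt7*, the slow sensor that supports facilitation and asynchronous release, was 160.4, 99.4, 243 and 141 in the WT mice and 461, 509, 458 and 498 in the V321L mice for granule nuclei and 13.0 to 120.4 (median 46.2) in GABAergic nuclei, with every granule value of a mouse above its GABAergic value (log2 fold change 2.53 ± 0.16, adjusted p = 3.02e-17). Against CA3 type nuclei the *Syt7* difference was small (log2 fold change 0.37 ± 0.10, adjusted p = 0.00246). *Syt5* was also higher in granule nuclei than in CA3 type (1.28 ± 0.18) and GABAergic nuclei (2.33 ± 0.28). *Syt1*, the fast sensor of synchronous release, was lower in granule than in CA3 type nuclei (log2 fold change -0.60 ± 0.09, adjusted p = 5.84e-07) and lower than in GABAergic nuclei (-0.38 ± 0.09), as were *Syt4* (-0.74 ± 0.14 and -0.83 ± 0.18) and *Syt11* (-0.39 ± 0.12 and -0.37 ± 0.13). *Syt2*, the fast sensor typical of some inhibitory neurons, gave 23 UMIs in all granule nuclei and 18 in the far fewer GABAergic nuclei, where its level was 0 to 26.5 (median 18.2).

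The synapsins split. *Syn3*, the synapsin best known from immature neurons, was 170.1 to 217 (median 188) in granule nuclei, 19.7 to 114 (median 51.5) in CA3 type nuclei and 30.2 to 97.4 (median 50.7) in GABAergic nuclei. Granule values lay above both other classes without overlap, and *Syn3* was called higher in granule nuclei in all 3 class comparisons (2.12 ± 0.17 against CA3 type, 1.41 ± 0.30 against CA1 type and 1.80 ± 0.21 against GABAergic). *Syn1* (-0.51 ± 0.11) and *Syn2* (-0.59 ± 0.11) were lower in granule than in CA3 type nuclei and were not called against either of the other classes.

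Among the SNARE proteins and their regulators, *Stxbp6* (amisyn), a syntaxin-binding protein with a VAMP-like domain, separated granule nuclei most strongly from the other neurons. Its level was 839.8 to 1266 (median 1030.4) in granule nuclei, 9.22 to 114 (median 17.4) in CA3 type nuclei and 45.6 to 159 (median 105) in GABAergic nuclei. The ranges did not overlap (log2 fold change 5.75 ± 0.21, adjusted p = 1.14e-24 and log2 fold change 3.51 ± 0.19, adjusted p = 1.80e-19 respectively). In CA1 type nuclei only 3 *Stxbp6* UMIs were counted against 10453 in granule nuclei of the same 3 mice, a level ratio of 157 (95% counting interval 53.9 to 764). *Stxbp6* UMIs were also found in 44.4% to 50.0% of WT oligodendrocyte nuclei, at median depths of 674 to 916.5 UMIs. In WT granule nuclei the share was 62.2% to 79.6%, at median depths of 1148 to 2098 UMIs. Granule and oligodendrocyte levels were not tested against each other, so *Stxbp6* is not shown to be particular to granule nuclei.

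The complexins, which clamp and activate SNARE complexes, went opposite ways. *Cplx2* was 73.0, 52.7, 102 and 63.1 in the WT mice and 329.8, 211, 252 and 338 in the V321L mice for granule nuclei and was higher there than in CA3 type (log2 fold change 1.04 ± 0.13, adjusted p = 1.43e-08), CA1 type (2.07 ± 0.24) and GABAergic nuclei (1.61 ± 0.18). *Cplx1* was 106, 65.1, 63.4 and 39.0 in the WT mice and 115, 106, 76.9 and 106 in the V321L mice for GABAergic nuclei against 11.8 to 40.4 (median 19.5) in granule nuclei. It was lower in granule than in GABAergic nuclei (log2 fold change -1.81 ± 0.18, adjusted p = 4.58e-11) and lower than in CA3 type nuclei (log2 fold change -0.56 ± 0.18, adjusted p = 0.00832). *Nsf*, the ATPase that disassembles SNARE complexes, was higher in granule nuclei in all 3 comparisons (0.67 ± 0.10, 0.63 ± 0.15 and 1.25 ± 0.11). *Stxbp5l* (tomosyn-2), which holds syntaxin and SNAP-25 in unproductive complexes, was lower than in CA3 type (-0.73 ± 0.10) and CA1 type nuclei (-0.57 ± 0.15) but higher than in GABAergic nuclei (0.77 ± 0.11), while its relative *Stxbp5* (tomosyn-1) was higher than in CA3 type (0.26 ± 0.10) and GABAergic nuclei (1.05 ± 0.12). *Snap25* was lower than in CA3 type (-0.83 ± 0.10) and GABAergic nuclei (-0.25 ± 0.10, but 0.0653 and not called with no filter on low counts) and higher than in CA1 type nuclei (0.43 ± 0.15). *Stx1a* was lower than in CA3 type nuclei (-1.99 ± 0.28) and CA1 type nuclei (-1.36 ± 0.49), from 216 UMIs in all granule nuclei.

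Of the 9 priming and active zone genes, none was called higher and 5 were called lower in granule than in CA3 type nuclei, beside 24.3% and 19.6% of all genes. *Unc13b*, the Munc13-2 priming factor, was 26.3 to 48.6 (median 36.9) in granule nuclei and 89.8 to 213 (median 125) in CA3 type nuclei, with no overlap (log2 fold change -1.77 ± 0.11, adjusted p = 1.78e-17), and was also below the CA1 type level of 129.7, 96.7 and 125 (-1.38 ± 0.21). *Rims2* was 282 to 676 (median 408) in granule, 514 to 1325 (median 1033) in CA3 type and 752 to 1776 (median 1162) in GABAergic nuclei, and was lower in granule nuclei than in each of the latter (log2 fold change -1.05 ± 0.10, adjusted p = 2.65e-11 and log2 fold change -1.38 ± 0.11, adjusted p = 1.82e-14). *Pclo* (Piccolo) followed the same order (-0.99 ± 0.10 and -1.06 ± 0.10). *Erc2* (CAST) was not called against CA3 type nuclei (log2 fold change 0.22 ± 0.10, adjusted p = 0.0679) but was higher in granule than in CA1 type (1.4 ± 0.16) and GABAergic nuclei (log2 fold change 1.43 ± 0.10, adjusted p = 5.31e-15). *Rims1* was lower than in CA3 type nuclei (-0.62 ± 0.10) and higher than in CA1 type nuclei (1.16 ± 0.16), and was called lower than in GABAergic nuclei (-0.30 ± 0.10) but not with no filter on low counts (0.0198). *Bsn* (Bassoon) was lower than in CA3 type nuclei (-0.29 ± 0.10) and higher than in CA1 type (0.71 ± 0.22) and GABAergic nuclei (0.82 ± 0.15). *Rims3* was counted rarely, with 27 UMIs in all granule nuclei against 39 in GABAergic nuclei, where its level was 0 to 54.7 (median 35.2) (log2 fold change -4.72 ± 0.55, adjusted p = 1.80e-09). It passed the low-count filter only through GABAergic nuclei, so only a lower call was possible for *Rims3* there.

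Of the Rab3 genes, 2 were lower in granule than in GABAergic nuclei and none higher, beside 20.1% and 26.0% of all genes. *Rab3b* passed the low-count filter only through GABAergic nuclei, so only a lower call was possible for it there. *Rab3b* was 52.9, 78.1, 63.4 and 39.0 in the WT mice and 60.2, 92.7, 97.4 and 98.7 in the V321L mice for GABAergic nuclei and 0.783 to 4.00 (median 1.84) in granule nuclei, so that the lowest GABAergic value lay far above the highest granule value (log2 fold change -5.08 ± 0.34, adjusted p = 2.73e-16). *Rab3c* was 318 to 742 (median 514) in GABAergic, 12.7 to 208 (median 83.8) in CA3 type and 32.3 to 57.1 (median 42.3) in granule nuclei. It was lower in granule nuclei than in GABAergic (log2 fold change -3.49 ± 0.14, adjusted p = 4.54e-24), CA3 type (-1.22 ± 0.15) and CA1 type nuclei (-2.27 ± 0.26). *Rab3a*, the main Rab3 of most synapses, was not called in any of the class comparisons (-0.12 ± 0.14, 0.25 ± 0.19 and 0.11 ± 0.16).

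Among the vesicle membrane proteins the SV2 isoforms divided the classes. *Sv2b* was 414, 489, 523 and 551 in the WT mice and 292, 226, 177 and 343 in the V321L mice for CA3 type nuclei, 169, 188 and 212 in the 3 mice with CA1 type nuclei, and 1.32 to 8.31 (median 5.15) in granule nuclei, with no overlap (log2 fold change -6.36 ± 0.16, adjusted p = 5.61e-30 and log2 fold change -5.67 ± 0.31, adjusted p = 1.93e-18 respectively). *Sv2b* UMIs were found in 0.590% to 2.86% of granule nuclei and 50.0% to 79.0% of CA3 type nuclei. *Sv2c* ran the other way, at 72.0, 71.7, 55.3 and 46.9 in the WT mice and 75.4, 79.6, 63.3 and 55.0 in the V321L mice for granule nuclei against 5 UMIs in all CA3 type nuclei, a ratio of 44.0 with a 95% counting interval of 18.8 to 136 (log2 fold change 5.22 ± 0.39, adjusted p = 7.35e-15) and 2 in CA1 type nuclei. *Sv2c* was not called between granule and GABAergic nuclei, where it was 0 to 99.3 (median 52.9) (log2 fold change 0.56 ± 0.24, adjusted p = 0.0548). *Sv2a*, the widespread isoform, was not called against CA3 type nuclei (-0.07 ± 0.13) and was lower in granule than in GABAergic nuclei (log2 fold change -1.10 ± 0.14, adjusted p = 8.31e-09). *Synpr* (synaptoporin), long known as a mossy fibre vesicle protein, was 688 to 1291 (median 831) in granule, 163 to 344 (median 268) in CA3 type and 208 to 651 (median 313) in GABAergic nuclei, and was higher in granule nuclei than in either (log2 fold change 1.67 ± 0.16, adjusted p = 7.91e-12 and 1.37 ± 0.17). Its 3 UMIs in CA1 type nuclei stood against 8263 in granule nuclei of the same mice, a ratio of 125 (95% counting interval 42.6 to 604). *Syp* (synaptophysin), its relative, was not called in any class comparison.

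**Figure D2:**
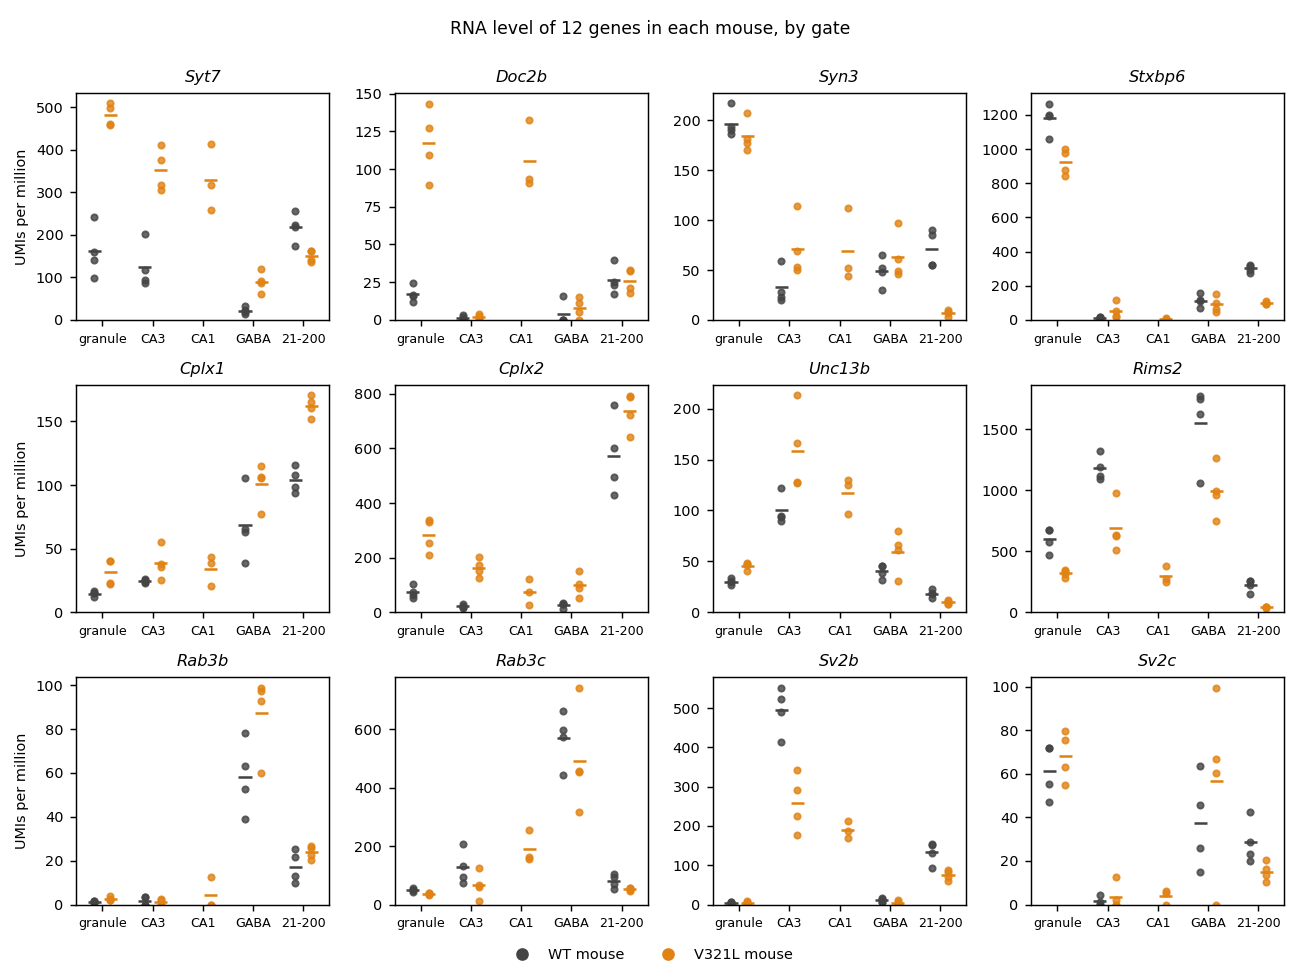
CPM (UMIs scaled to a total of 1000000; vertical axes, from 0) of 12 genes in each mouse (points, WT grey, V321L orange; lines are means) for granule, CA3 type, CA1 type and GABAergic nuclei and barcodes of 21-200 UMIs. *Sv2b* is near 0 in granule and GABAergic nuclei, *Stxbp6* and *Syn3* are highest in granule nuclei, *Rab3b* and *Rab3c* are highest in GABAergic nuclei, and *Doc2b* and *Syt7* granule values are all higher in V321L than in WT mice.

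Another 53 genes of the vesicle cycle gave a similar mixture. Of the 45 that could be tested, 10 were higher and 20 lower in granule than in CA3 type nuclei, beside 24.3% and 19.6% of all genes. Against GABAergic nuclei 13 of them were higher and 16 lower, beside 26.0% and 20.1%. The synaptotagmins *Syt10* (2.95 ± 0.26 against CA3 type and 2.62 ± 0.34 against GABAergic) and *Syt17* (2.84 ± 0.22 and 2.75 ± 0.29) were among those higher in granule nuclei. *Cadps*, a priming factor for dense-core vesicles, was lower against both (-1.90 ± 0.10 and -1.72 ± 0.10), and the vesicular glutamate transporter *Slc17a7* was higher than in GABAergic nuclei (3.85 ± 0.28).

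Accessibility at the transcription start sites was compared for the 28 members that had a peak within 1000 bp of their start-site interval in all 8 libraries and passed the filter on low counts. Granule nuclei had 2 members higher and 3 lower than CA3 type nuclei, where 1.34% and 2.42% of all 10421 genes tested were called, and 2 higher and 2 lower than GABAergic nuclei, where 4.36% and 2.09% were called. Against the CA1 type nuclei of 3 mice no member was called in either direction, beside 0.125% and 0.163% of all genes. Start-site levels are in CPM of the ATAC counts summed over the start-site intervals of the genes with such a peak in all 8 libraries. For *Sv2c* the accessibility in granule nuclei was 69.7, 84.3, 77.0 and 65.4 in the WT mice and 85.3, 68.0, 65.2 and 77.8 in the V321L mice. In CA3 type nuclei it was 0 to 30.2 (median 15.8). The ranges did not overlap and granule nuclei were higher (log2 fold change 2.35 ± 0.33, adjusted p = 3.28e-08). *Sv2b* was the reverse, at 27.3 to 75.3 (median 56.4) in granule and 64.2 to 234 (median 173) in CA3 type nuclei, ranges that overlap at their edges (log2 fold change -1.64 ± 0.21, adjusted p = 4.53e-10). *Doc2b* was more accessible in granule than in CA3 type (log2 fold change 1.57 ± 0.32, adjusted p = 0.000218) and GABAergic nuclei (1.17 ± 0.37). *Rims1* was less accessible than in CA3 type nuclei (-0.64 ± 0.14), *Syt4* was less accessible than in both (-1.46 ± 0.30 and -1.19 ± 0.36), *Cplx1* was less accessible than in GABAergic nuclei (-1.06 ± 0.33), and *Erc2* was more accessible than in GABAergic nuclei (0.82 ± 0.14). In each of these 9 calls, with *Doc2b* and *Syt4* in both comparisons, the RNA difference in the same comparison was called with the same sign. Most members called in RNA against CA3 type or GABAergic nuclei had no accessibility call. The share of all genes with matching accessibility and RNA calls was not computed, so this count is not set against it. The GABAergic values rest on few counts, 67 at *Cplx1*, 54 at *Syt4* and 30 at *Doc2b* over all mice, and without WT F1, WT M1 or V321L F2 neither lower call against GABAergic nuclei held, with 0 to 2 members lower over the 8 mice left out in turn. Start-site intervals of *Sv2b*, *Sv2c*, *Rims1* and *Erc2* span 89244, 43712, 490190 and 253677 bp, so that these values cover several promoters and gene body. Outside WT M1 and V321L M1, no peak lay over a RefSeq promoter of *Sv2b*. Over the *Rims1* RefSeq promoter the ranges overlapped, at 31.9 to 52.6 CPM of all ATAC counts in granule and 29.5 to 56.1 in CA3 type nuclei. Differences at these promoters themselves were not tested.

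The 250 bases before the RefSeq start of *Cplx1*, *Rab3c* and *Sv2c* (GRCm38.p6, minus strand, written in the direction of transcription) are shown as examples. These members separated granule from GABAergic or CA3 type nuclei in RNA, and each had a single RefSeq promoter with a peak in all 8 libraries. Other members, *Stxbp6* and *Unc13b* among them, met the same conditions and are not shown. Each window shown holds a searched letter pattern, so these windows do not stand for the members at large. RefSeq promoters were found for 30 of the 38 members, as 38 windows. Capitals mark the E-box CAGCTG, a letter pattern of basic helix-loop-helix factors, and CAGCACC, letters from the left side of the RE1 element bound by REST, searched on both strands and not overlapping each other.
*Cplx1*, chr5:108550028-108550277: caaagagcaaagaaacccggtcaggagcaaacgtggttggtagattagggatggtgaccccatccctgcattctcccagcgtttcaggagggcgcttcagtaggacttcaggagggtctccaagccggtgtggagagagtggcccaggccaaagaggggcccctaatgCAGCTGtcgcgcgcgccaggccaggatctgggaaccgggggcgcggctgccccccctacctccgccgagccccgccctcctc
*Rab3c*, chr13:110280207-110280456: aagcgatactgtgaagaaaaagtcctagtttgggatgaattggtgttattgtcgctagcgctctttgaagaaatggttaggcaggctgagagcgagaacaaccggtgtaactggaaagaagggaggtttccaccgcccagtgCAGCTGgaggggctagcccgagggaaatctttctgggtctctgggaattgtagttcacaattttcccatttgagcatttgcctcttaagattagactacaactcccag
*Sv2c*, chr13:96132578-96132827: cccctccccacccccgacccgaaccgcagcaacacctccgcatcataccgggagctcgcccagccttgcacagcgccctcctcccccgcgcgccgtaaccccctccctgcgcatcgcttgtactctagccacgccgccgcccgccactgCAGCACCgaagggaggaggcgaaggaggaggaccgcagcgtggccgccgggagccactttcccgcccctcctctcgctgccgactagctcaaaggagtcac
The E-box began 82 bases before the start in *Cplx1* and 108 before it in *Rab3c*, and CAGCACC began 101 bases before the start in *Sv2c*. CAGCTG was in 9 of the 38 windows and in 13.0% of all 32851 RefSeq windows of that length, and CAGCACC was in 2 of 38 and 5.73%. In the peak over the *Rab3c* window granule nuclei had 16.7 to 26.6 CPM (median 18.1), here of all ATAC counts of the class, and GABAergic nuclei 0 to 111 (median 42.6), from 54 counts in all, and the *Rab3c* start-site comparison was not called (log2 fold change -0.81 ± 0.35, adjusted p = 0.196). Over the *Sv2c* window the ranges overlapped, at 12.1 to 26.1 CPM (median 16) in granule and 0 to 15.3 (median 7.5) in CA3 type nuclei, the latter from 26 counts. In V321L M1 the CA3 type value of 14.6 lay above the granule value of 12.1. Differences at the windows themselves were not tested.

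Barcodes of 21-200 UMIs, too shallow to be counted as nuclei, gave 278336 to 858743 UMIs in the WT libraries and 2511287 to 5300883 in the V321L libraries. The 38 members together made up 12111 to 14355 CPM there in WT mice against 16170 to 18419 in granule nuclei, and 7059.7 to 8142 against 13584 to 14332 in V321L mice. Granule nuclei were higher than these barcodes for 15 and lower for 17 of the 36 members tested, where 36.6% and 43.5% of all 11781 genes were called. Of the 9 priming and active zone genes 6 were higher in granule nuclei and none lower, and all 3 Rab3 genes were lower. The other roles were mixed, with 3 higher and 7 lower among SNARE proteins and regulators, and 3 and 3 among synaptotagmins and *Doc2b*. Synapsins gave 1 and 1, and vesicle membrane proteins 2 and 3. No test between roles was made.

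*Rims1* was 428, 496, 643 and 655 in the WT mice and 111, 75.6, 80.4 and 88.7 in the V321L mice in the low-UMI barcodes and 1096 to 2103 (median 1451) in granule nuclei, without overlap (log2 fold change 2.55 ± 0.19, adjusted p = 2.82e-08). *Erc2* (2.83 ± 0.18), *Syn3* (2.94 ± 0.32) and *Stxbp5l* (2.74 ± 0.18) were likewise higher in nuclei. *Vamp2*, synaptobrevin-2, was 309, 259, 216 and 275 in the WT mice and 408, 409, 364 and 409 in the V321L mice in the low-UMI barcodes and 13.8 to 157 (median 44.6) in granule nuclei, and every low-UMI value lay above every granule value (log2 fold change -3.02 ± 0.18, adjusted p = 3.50e-09). *Rab3a* (-2.96 ± 0.17), *Cplx1* (-2.88 ± 0.20), *Cplx2* (-2.39 ± 0.13) and *Snap25* (-1.72 ± 0.14) were lower in granule nuclei too. *Sv2b* was 60.5 to 153 (median 91.1) in the low-UMI barcodes, between its granule and its WT CA3 type levels (log2 fold change -4.78 ± 0.26, adjusted p = 2.42e-09 for granule against low-UMI), and *Rab3b* likewise lay between its granule and GABAergic levels (-3.85 ± 0.21). In WT mice alone *Syt7* and *Doc2b* had the opposite sign from the fit over all mice (-0.32 and -0.38 against 0.41 ± 0.17 and 0.83 ± 0.25).

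The members on each side differed in gene length. Over the 36 members tested, Spearman's rho between RefSeq gene length and the granule against low-UMI fold change was 0.714, beside 0.587 over 11317 genes with a length. Split at the members' median length of 88.2 kb, 13 of the longer genes were higher and 2 lower in granule nuclei, and 2 of the shorter genes were higher and 15 lower, with 18 of 19 tested on each side. These points share libraries and classes and are a description. Of the other vesicle-cycle genes 17 were higher and 26 lower of 49 tested, beside 36.6% and 43.5% of all genes.

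In V321L against WT granule nuclei, 12 of the 35 members tested rose and 13 fell, where 38.6% of all 11973 genes tested were higher and 31.3% lower. With total UMIs alone as the scale the split was 20 higher and 11 lower, where the median of all genes moved from 0.12 to 0.58 and that of the members from -0.12 to 0.33. The shares of all genes called on the total-UMI scale are not given in this report, so member counts on that scale, here and below, have no such share beside them. No member called with trimmed mean scaling changed direction on the total-UMI scale. *Snap25*, *Nsf*, *Napb*, *Syn1* and *Syt11* had negative fold changes without a call with trimmed mean scaling. On the total-UMI scale they were called higher (0.29, 0.34, 0.33, 0.31 and 0.38). The shorter genes of the vesicle and the SNARE machinery (*Rab3a*, *Vamp2*, *Cplx2*, *Syp*, *Syt5*, *Stx1a*) rose and the long genes of the active zone (*Rims1*, *Rims2*, *Pclo*, *Erc2*) fell. V321L and WT libraries also differed in depth, ribosomal protein RNA and mitochondrial RNA (0.411% to 1.16% against 0.180% to 0.282% of granule UMIs). In granule nuclei the 8 granule markers summed to 4085 to 4624 CPM in V321L and 7191 to 8326 in WT mice, the 8 oligodendrocyte markers to 385.6 to 464.1 and 340.9 to 422.6, and *Mbp* alone, a myelin gene, was 86.1 to 152 and 34.2 to 55.3. Their part in the differences was not tested. Depth, ribosomal protein RNA, mitochondrial RNA, the granule marker sum and *Mbp* were apart in every library and cannot be told apart from genotype. The oligodendrocyte marker sums overlapped between the genotypes.

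**Figure D3:**
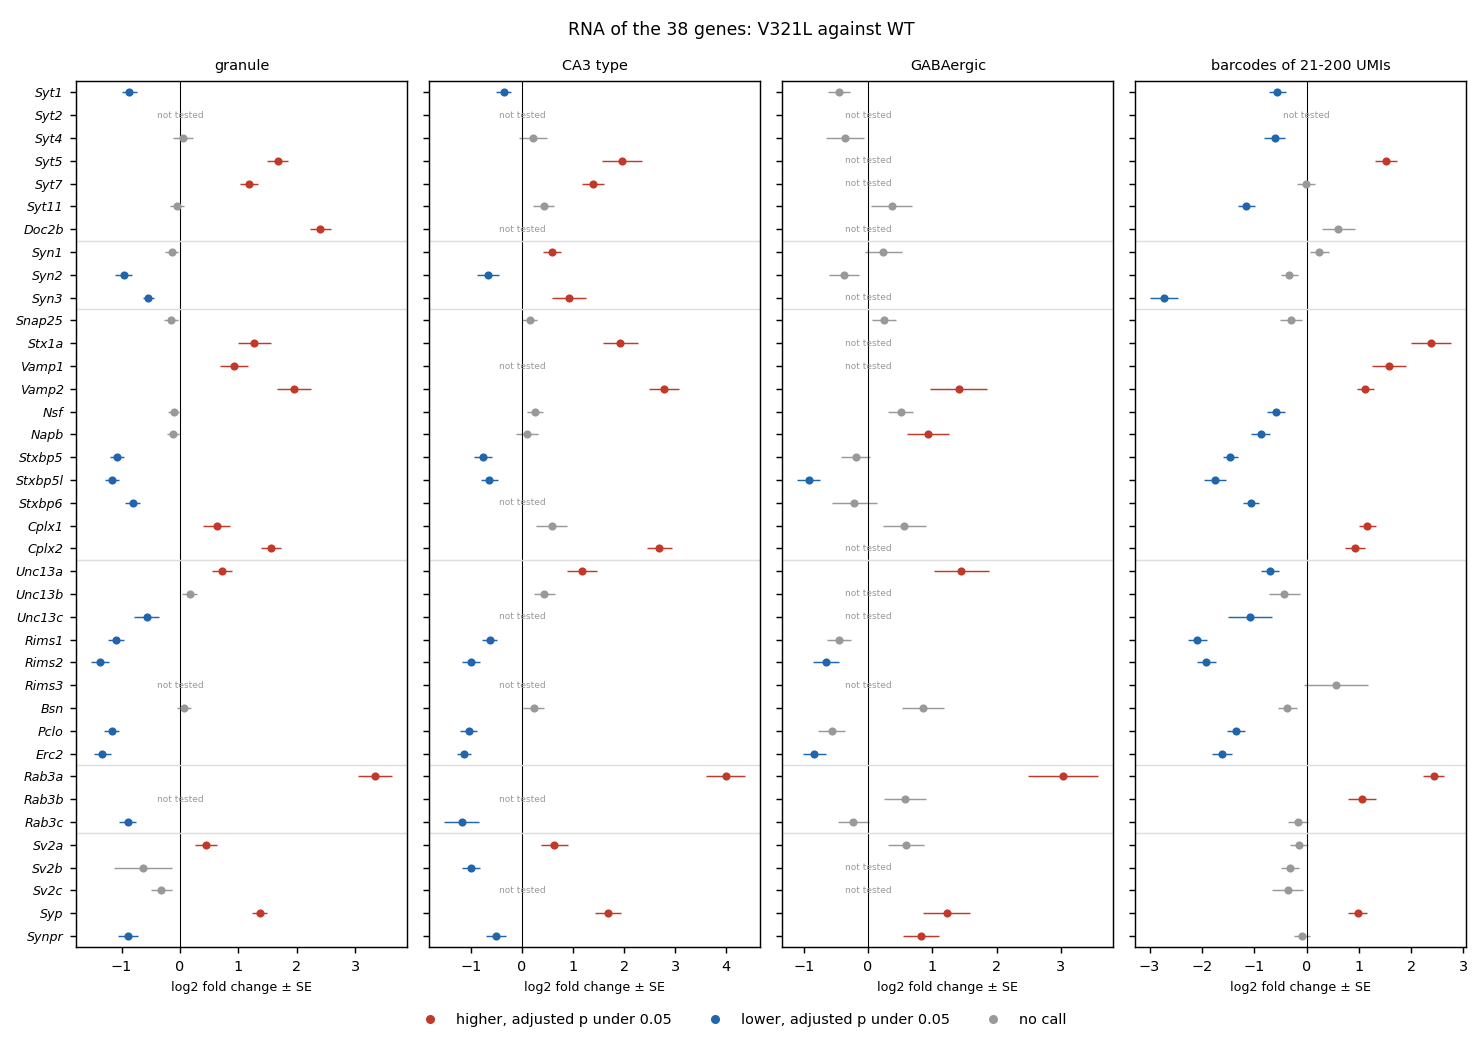
Log2 fold change (points, with SE as bars) of each of the 38 genes in V321L against WT mice for granule, CA3 type and GABAergic nuclei and for barcodes of 21-200 UMIs; red marks genes higher and blue genes lower in V321L at an adjusted p under 0.05. *Rab3a* is the furthest to the right in all 3 nuclear panels, and *Rims2*, *Erc2* and *Stxbp5l* lie to the left of 0 in all 4.

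Of the Rab3 genes, *Rab3a* was 9.78, 7.56, 22.3 and 13.2 in the WT mice and 201, 112, 114 and 239 in the V321L mice in granule nuclei, the lowest V321L value being above the highest WT value, and rose (log2 fold change 3.34 ± 0.30, adjusted p = 5.42e-07). *Rab3a* UMIs were found in 1.5% to 3.08% of WT and 36.5% to 53.9% of V321L granule nuclei, and in 0 to 7.14% and 7.84% to 12.5% of oligodendrocyte nuclei. For astrocyte or radial glia nuclei the shares were 0 to 15.4% in WT and 12.7% to 25.0% in V321L mice. *Rab3c* fell (-0.90 ± 0.15), and *Rab3b* was too low to test. Of the SNARE genes and regulators, 5 rose and 3 fell, beside 38.6% and 31.3% of all genes. *Vamp2* was 23.8, 13.8, 28.9 and 18.9 in the WT mice and 146, 72.3, 60.4 and 157 in the V321L mice and rose (log2 fold change 1.95 ± 0.30, adjusted p = 4.54e-05). *Cplx2* had levels of 329.8, 211, 252, 338 in V321L mice, all above the WT values, and rose (log2 fold change 1.55 ± 0.17, adjusted p = 2.77e-06). For *Rab3a*, *Vamp2* and *Cplx2* the V321L values of F1 and M2 lay above those of F2 and M1. Ribosomal protein RNA in granule nuclei was 1.68% and 1.79% in V321L F1 and M2, against 0.861% and 0.917% in F2 and M1. *Doc2b* and *Syt7* did not split this way, and the cause of the split was not tested. *Stx1a* (1.28 ± 0.28), *Vamp1* (0.93 ± 0.24) and *Cplx1* (0.63 ± 0.23) also rose. The tomosyns *Stxbp5* (-1.08 ± 0.12) and *Stxbp5l* (log2 fold change -1.16 ± 0.12, adjusted p = 1.23e-06) and *Stxbp6* (-0.81 ± 0.13) fell. *Snap25* (-0.16 ± 0.12), *Nsf* (-0.10 ± 0.09) and *Napb* (-0.12 ± 0.11) were not called, although their plain levels in CPM were higher in every V321L mouse and all 3 were called higher on the total-UMI scale.

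Of the active zone genes 5 fell and 1 rose, beside 31.3% and 38.6% of all genes. *Erc2* was 3981, 4215, 3441 and 3396 in the WT mice and 1957, 2179, 2063 and 2021 in the V321L mice in granule nuclei, the groups not overlapping (log2 fold change -1.33 ± 0.14, adjusted p = 2.01e-06). *Rims2* was 672, 676, 471 and 579 in the WT mice and 317, 342, 345 and 282 in the V321L mice, again without overlap (log2 fold change -1.36 ± 0.15, adjusted p = 3.39e-06). *Pclo* (-1.17 ± 0.13) and *Rims1* (-1.09 ± 0.14) fell by a similar amount and *Unc13c* by less (log2 fold change -0.57 ± 0.22, adjusted p = 0.0321). On the total-UMI scale *Unc13c* was not called (log2 fold change -0.13). *Unc13a*, Munc13-1, rose (log2 fold change 0.72 ± 0.17, adjusted p = 0.00152), *Unc13b* (0.16 ± 0.12) and *Bsn* (0.07 ± 0.12) were not called, and *Rims3* was too low to test.

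Within the synaptotagmin and *Doc2b* group, *Doc2b* rose most (log2 fold change 2.40 ± 0.18, adjusted p = 1.57e-07), followed by *Syt5* (1.68 ± 0.18) and *Syt7* (log2 fold change 1.18 ± 0.16, adjusted p = 1.59e-05). The V321L values of all 3 lay above all WT values. *Syt1* was 3574, 3464, 3164 and 3292 in the WT mice and 2273, 2593, 2774 and 2452 in the V321L mice and fell (log2 fold change -0.87 ± 0.13, adjusted p = 3.87e-05). *Syt4* (0.05 ± 0.16) and *Syt11* (-0.05 ± 0.12) were not called. *Syn2* was 577, 689, 504 and 538 in the WT mice and 438, 405, 373 and 417 in the V321L mice, without overlap, and fell (log2 fold change -0.97 ± 0.14, adjusted p = 3.45e-05). *Syn3* was 193, 186, 217 and 191 in the WT mice and 170.1, 208, 182 and 177 in the V321L mice, with overlap, and was called lower (log2 fold change -0.54 ± 0.10, adjusted p = 0.000206), while *Syn1* (-0.14 ± 0.11) was not called. On the total-UMI scale *Syn3* was not called (log2 fold change -0.09). *Syp* was 54.5, 43.8, 80.9 and 54.7 in the WT mice and 200.3, 189, 199 and 208 in the V321L mice, without overlap, and rose (log2 fold change 1.36 ± 0.12, adjusted p = 6.14e-07), whereas its relative *Synpr* was 1012, 1291, 821 and 885 in the WT mice and 715, 762, 841 and 688 in the V321L mice, the ranges overlapping slightly, and fell (log2 fold change -0.89 ± 0.17, adjusted p = 0.000398). *Sv2a* rose slightly (log2 fold change 0.45 ± 0.18, adjusted p = 0.042), and *Sv2b* (-0.63 ± 0.50) and *Sv2c* (-0.32 ± 0.18) were not called.

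The genotype calls in granule nuclei divided by gene length. All 12 members that rose in granule nuclei were among the 19 shorter genes and all 13 that fell were among the 19 longer ones, with 17 and 18 of them tested. Spearman's rho between gene length and the fold change was -0.841 over the 35 members and -0.714 over 11331 genes with a length, and was -0.731 in CA3 type nuclei (30 members), -0.743 in GABAergic nuclei (25 members) and -0.714 in the low-UMI barcodes (37 members). On the total-UMI scale 17 shorter and 3 longer members were higher and 11 longer members were lower in granule nuclei. The members share the same 8 libraries, so these correlations are descriptions. Of the shorter genes tested, *Syt4*, *Syt11*, *Syn1*, *Snap25* and *Napb* were not called, and of the longer genes *Nsf*, *Unc13b*, *Bsn*, *Sv2b* and *Sv2c* were not called.

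**Figure D4:**
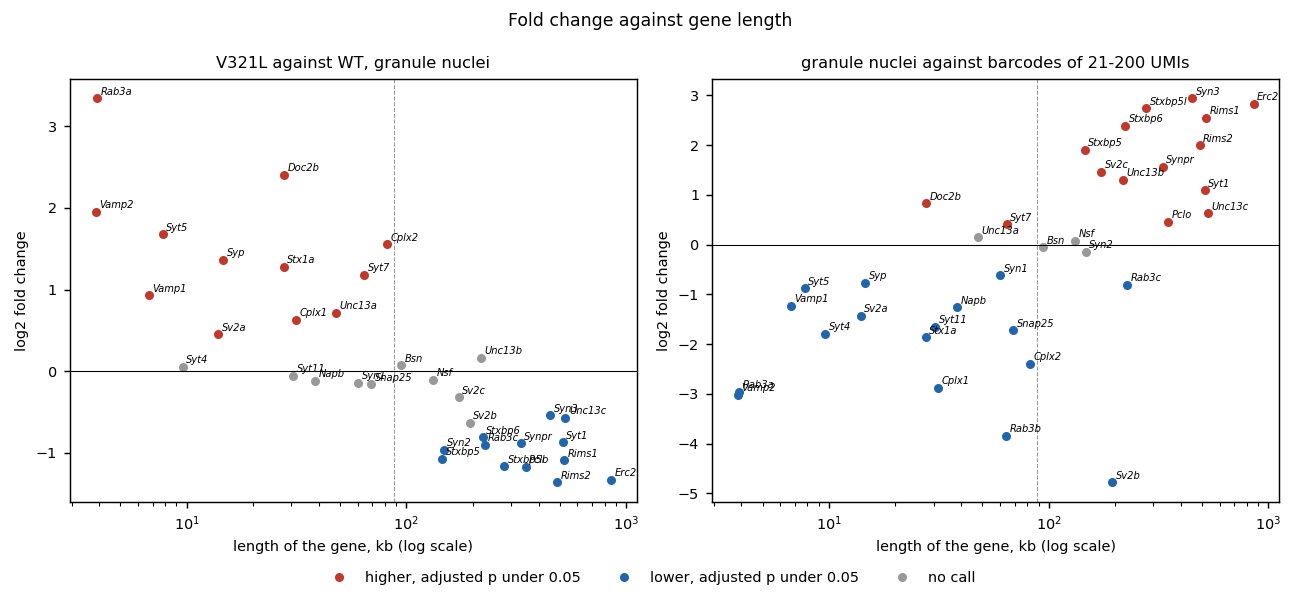
Log2 fold change (vertical axes) against RefSeq gene length in kb (log scale) for the members tested, in V321L against WT granule nuclei (left) and in granule nuclei against barcodes of 21-200 UMIs (right); the dashed line is the members' median length of 88.2 kb, and red, blue and grey mark higher, lower and no call. In the left panel every red point lies left of the line and every blue point right of it, and in the right panel most blue points lie left of the line.

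In CA3 type nuclei 11 of the 30 members tested rose and 11 fell, beside 28.2% and 21.7% of all 5696 genes, or 15 and 8 on the total-UMI scale, where the median of all genes moved from 0.03 to 0.23. The calls in granule and CA3 type nuclei, which come from the same mice, were both upward for 9 members and both downward for 10. Of all genes tested in granule nuclei, 38.6% rose and 31.3% fell. The share of all genes called the same way in both classes was not computed, so these joint counts are not set against it. *Rab3a* was 19.7, 5.77, 23.2 and 4.99 in the WT mice and 207, 100.2, 101 and 292 in the V321L mice (log2 fold change 3.99 ± 0.38, adjusted p = 7.09e-08), *Vamp2* rose by 2.8 ± 0.29 and *Cplx2* by 2.69 ± 0.24. *Sv2b*, which was also found in CA1 type nuclei, fell in CA3 type nuclei, with V321L values of 292, 226, 177, 343 all below the WT values (log2 fold change -1.0 ± 0.18, adjusted p = 0.000121). *Syn3* was called lower in granule nuclei, though not on the total-UMI scale. It was called higher in CA3 type nuclei (log2 fold change 0.92 ± 0.34, adjusted p = 0.0308), where it turned to -0.06 when no upper limit was set on nucleus depth. The upper limits left 70, 17, 12 and 81 CA3 type nuclei in the V321L mice, against 174, 87, 74 and 151 without them. In the WT mice these numbers were 109, 259, 134 and 136, against 131, 284, 131 and 166. Without the limits the median fold change of the members was 0.05 and that of all genes 0.06, beside 0.24 and 0.03 with them.

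In GABAergic nuclei 6 of the 25 members tested rose and 3 fell, beside 16.9% and 10.7% of all 2944 genes. On the total-UMI scale 6 rose and 5 fell, where the median of all genes moved from -0.01 to -0.02. *Rab3a* (log2 fold change 3.03 ± 0.55, adjusted p = 0.000667), *Vamp2* (1.41 ± 0.44), *Unc13a* (1.45 ± 0.43), *Syp* (1.22 ± 0.37), *Napb* (0.93 ± 0.33) and *Synpr* (0.82 ± 0.28) rose, and *Stxbp5l* (-0.92 ± 0.18), *Rims2* (-0.65 ± 0.20) and *Erc2* (-0.84 ± 0.18) fell. *Synpr* was 227, 293, 349 and 208 in the WT mice and 334, 271, 651 and 592 in the V321L mice in GABAergic nuclei, the groups overlapping (log2 fold change 0.82 ± 0.28, adjusted p = 0.0392). With 27 to 62 nuclei a mouse, fewer members could be tested here than elsewhere. Without WT F2 only 3 members rose, and without WT M1 6 fell.

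Whether the genotype difference itself differed between classes was tested as an interaction. Between granule and CA3 type nuclei no member of 35 was called in either direction by edgeR, beside 0% higher and 0.0121% lower of 8231 genes, and 143 and 465 genes had an unadjusted p under 0.05 in each direction. Between granule and GABAergic nuclei no member was called higher, beside 0.0121%, and 1 lower, beside 1.21%. That member was *Synpr*, which fell in granule nuclei and rose in GABAergic nuclei (difference log2 fold change -1.47 ± 0.25, adjusted p = 0.000337). The median of all genes in this interaction was -0.26, and -0.02 on the total-UMI scale, where the *Synpr* difference was -1.22 (adjusted p = 0.00608). It was not called with nuclei thinned to 1000 UMIs (adjusted p = 0.0886) or with a looser gate (adjusted p = 0.183). The next in order in the CA3 type comparison, *Stxbp6* and *Syn3*, had an adjusted p of 0.077 each. A p above the threshold does not show that the classes responded alike.

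The low-UMI barcodes also differed by genotype, with 9 of the 37 members tested higher and 15 lower in V321L, beside 39.1% and 34.1% of all 10541 genes. On the total-UMI scale the counts were 7 and 25, with the median of all genes moving from 0.12 to -0.40. *Rab3a* was 216, 100.2, 194 and 147 in the WT mice and 629.9, 553, 481 and 703 in the V321L mice there, without overlap (log2 fold change 2.43 ± 0.21, adjusted p = 3.12e-10), and *Syn3* was 55.4, 54.7, 89.8 and 85.2 in the WT mice and 7.92, 9.92, 2.8 and 6.93 in the V321L mice, also without overlap (log2 fold change -2.72 ± 0.27, adjusted p = 3.14e-09). *Rims1* (-2.09 ± 0.18), *Rims2* (-1.91 ± 0.18) and *Erc2* (-1.62 ± 0.19) were lower, and *Stx1a* (2.38 ± 0.39), *Vamp2* (1.12 ± 0.16) and *Cplx1* (1.16 ± 0.16) higher. Both the granule and the low-UMI comparison called 8 members higher and 10 lower. The share of all genes called the same way in both comparisons was not computed. *Unc13a* rose in granule nuclei and was lower in the low-UMI barcodes (log2 fold change -0.70 ± 0.17, adjusted p = 0.00086), where its values were 106, 100.2, 104 and 75.3 in the WT mice and 42.8, 44.8, 37.4 and 40.8 in the V321L mice. *Syt7* and *Doc2b*, which rose in granule nuclei, were not called in the low-UMI barcodes (-0.01 ± 0.17 and 0.61 ± 0.31), and neither difference between the nuclear and the low-UMI change was tested. In the low-UMI barcodes granule marker RNA was 1663 to 2084 CPM in WT and 461.6 to 571.8 in V321L mice, CA3 type marker RNA 671.8 to 875.7 and 158.9 to 264.7, and GABAergic marker RNA 247.9 to 425.2 and 198.3 to 232.1. Astrocyte marker RNA was 1786 to 3378 CPM in the low-UMI barcodes of WT mice and 547.6 to 728.3 in V321L mice, oligodendrocyte marker RNA 1761 to 2426 and 2880 to 5559, and mitochondrial RNA 7.95% to 10.7% and 14.2% to 22.8%. Their part in these differences was not tested.

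The other vesicle-cycle genes gave 20 higher and 18 lower of 48 tested in granule nuclei by genotype, beside 38.6% and 31.3% of all 11973 genes. *Slc17a7*, the vesicular glutamate transporter VGLUT1, rose by 2.33 ± 0.18, *Syngr1* and *Syngr3*, synaptogyrins of the vesicle membrane, by 2.04 ± 0.19 and 2.54 ± 0.23, and the clathrin light chains *Clta* and *Cltb* by 1.96 ± 0.18 and 1.65 ± 0.23. *Erc1* (-1.18 ± 0.15), *Cask* (-1.06 ± 0.12) and *Ppfia2*, liprin-alpha-2 (-0.98 ± 0.12), fell.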

How the data were processed

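Nuclear RNA and open chromatin were measured in 1 library for each of 8 mice, 4 WT and 4 V321L, and no library was left out. The authors' deposited matrices hold counts, RNA UMIs per gene and ATAC counts per peak for every barcode, made with cellranger-arc 2.0.2 per the file headers; mm10 is the build named in the submitters' processing notes, which also list Seurat and Signac. Peaks were called in each library. Nuclei were kept with over 500 UMIs, over 250 genes, at least 500 ATAC counts, and under 8916.1 UMIs, 3307.526 genes and 2.787142% mitochondrial RNA; barcodes with a doublet score above the library mean plus 2 SD were removed. Counts were summed by mouse and class (at least 10 nuclei) and tested with edgeR 4.0.16 in R 4.3.3 (trimmed mean scaling, filterByExpr, quasi-likelihood test, Benjamini-Hochberg over all genes tested), with mouse as a block between classes; the test was checked on simulated data. Intervals are Clopper-Pearson and cover counting error only. All 38 members are named, and values by mouse, or their lowest, median and highest, are given for members with large called differences and where the text turns on an overlap. The members, the 53 other vesicle-cycle genes and the marker lists were chosen with earlier results of these data known. Library totals over all barcodes were 4326426 to 14624265 UMIs in WT and 15505354 to 23582057 in V321L mice. At most 12 nucleus barcodes were shared by any of 28 pairs of libraries, and sex labels matched in 8 of 8 libraries. Alternatives were other scalings, DESeq2 1.42.0, no filter, other gates, depth thinning, doublets kept, other limits, a 500 bp window and leaving out each mouse.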

Additional observations from a re-analysis of the deposited data

Results flagged for a closer look

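In the barcodes of 21-200 UMIs, *Vamp2* in V321L M1 was 363.6 CPM (UMIs per 1000000) while the other V321L mice lay between 408.2 and 409.1, and *Syp* in the same library was 156.1 against 191.1 to 197.1. Both were marked because the gap to the nearest mouse took up more of the group's range than Dixon's 95% limit for 4 samples. Of 144 groups of 4 examined 2 were marked (1.39%), and chance marks about 1 in 20.

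The genotype difference of *Synpr* differed between classes, with an interaction of -1.47 on the log2 scale for granule minus GABAergic nuclei (edgeR, adjusted p = 0.000337). Over 18 alternatives it ranged from -1.69 to -0.95 and stayed called in 16, with adjusted p from 7.59e-06 to 0.183.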

How the results depend on the processing

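Of 3395 values of called members recomputed under 25 settings, 3169 kept their direction and call, 220 lost the call and 6 reversed, and 403 of 434 counts of members stayed within 1.5 times the reported count. With library sizes alone, 20 members were higher in V321L granule nuclei, 5 lower in GABAergic nuclei and 25 lower in low-UMI barcodes. The GABAergic genotype comparison depended most on the settings: 5 members were lower with doublets kept, 6 with no upper limits, 5 with no ATAC minimum and 6 with a looser gate (chosen after seeing the data), and 0 were higher with a stricter gate. In nuclei thinned to 1000 UMIs, where fewer genes could be tested, it gave 1 higher and 0 lower, the CA3 type genotype comparison 5 higher and 2 lower of 17 tested, granule against CA1 type 3 lower and granule against GABAergic 5 lower. The granule and GABAergic interaction called 0 members when thinned and with the looser gate, and the CA3 type interaction called 1 lower with no filter. With a 500 bp window 1 member was more accessible in granule than in CA3 type and 1 than in GABAergic nuclei. There 26 members were tested instead of 28, and all 7 accessibility calls of members still tested were kept. The missing calls belonged to members not tested with that window. The cause of the other shifts was not tested.

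Leaving out each mouse in turn gave, for V321L against WT, 10 to 12 higher and 12 to 14 lower in granule, 8 to 11 and 9 to 11 in CA3 type, 3 to 7 and 2 to 6 in GABAergic nuclei and 9 to 10 and 13 to 18 in low-UMI barcodes. Start-site calls against GABAergic nuclei ranged from 1 to 2 higher (1 without WT F1 or F2) and 0 to 2 lower (0 without WT F1, WT M1 or V321L F2, 1 without WT F2, WT M2 or V321L M1). The CA3 type interaction ranged from 0 to 2 lower (2 without WT M1, 1 without V321L M2). Reversed values were *Snap25* 0.0653 and *Rims1* 0.0198 in granule against GABAergic nuclei with no filter, *Syt7* -0.32 and *Doc2b* -0.38 against low-UMI barcodes in WT mice only, *Syn3* -0.0599 in CA3 type nuclei with no upper limits, and *Syt1* 0.15 in CA3 type nuclei when thinned; none of these alternative values was called.

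The replicate block kept 75 of 80 genotype calls and lost 5, giving 12 higher and 14 lower in granule, 10 and 9 in CA3 type, 5 and 2 in GABAergic nuclei and 9 and 15 in low-UMI barcodes. Same-numbered mice correlated from -0.11 to 0.27, with 1 of 4 pairs over 0.1, so the numbers were not taken to pair the mice. The limits are depth and class size. CA1 type nuclei came from 3 V321L mice. CA3 type nuclei numbered 12 and 17 in 2 of the V321L mice, where 74 and 87 were found with no upper limits on depth. Genotype went with depth, mitochondrial and ribosomal RNA in each library. No label names a batch.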
